A study of Rattus norvegicus with 32 samples.

Results

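The cell cycle and DNA replication families were followed in the hippocampus of a rat model of Alexander disease, a disorder of astrocytes caused by mutations of the intermediate filament gene Gfap. Members were the identifiers of the count table whose symbol fits a fixed set of family names (A, B, D, E and F type cyclins, Cdk, Cdc, Cdca, Cenp, Mcm and Kif names, Aurora, Bub and Plk kinases, E2f factors, Chek, Rrm, Pole, Ncap, Rad5 and Brca names, and Top2a, Mki67, Tpx2, Prc1 and Birc5). There were 63 of them among 23822 identifiers. R237H rats carried 1 mutant allele (Gfap+/R237H) and WT rats, their littermates, carried none (Gfap+/+), and both were on the Crl:CD(SD) background. The mutation was present in every cell, while Gfap is mainly an astrocyte gene. Hippocampi of males and females were taken at 21 days (P21) or 56 days (P56) of age, with 4 rats in each group of a sex, age and genotype, except for 3 WT and 5 R237H females at P21, 32 rats in all. The study compared R237H with WT rats within each sex and age to separate early events from those of established disease.

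Symbols came only from the 4 gene lists that accompany the study, 1 for each sex and age, each sorted by the strength of the genotype difference and held here down to its first 1855 to 1999 identifiers. A gene became a member because at least 1 genotype comparison placed it high, so a family gene that was placed high in none has no symbol here and was not counted. The lists held 38 members in P56 males, 33 in P56 females, 43 in P21 males and 55 in P21 females. On all 4 lists stood 26 members, and on a single list 17. The last members inside at P56 were Ccnb2 at position 1955 in males (log2 fold change 1.75) and Chek1 at 1816 in females (1.09). At P21 they were Kif14 at 1891 in males (1.02) and Cenpi at 1953 in females (0.73). Family genes on none of the 4 lists cannot be named. Tests are therefore given in a comparison only for members that the list of other rats had placed high, and the remaining members get values without a test. The label was checked against textbook roles: 57 members act in division or DNA replication, and 6 (Cdc42ep1, Cdk5r1, Cdk5rap2, Kif1c, Kif26b and Kif7) carry a family name, were given no phase and were kept apart. Of these, Cdk5rap2 is a centrosome protein that is also tied to division, so the 6 are not strictly outside it.

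A dividing cell passes through G1, in which D cyclins with Cdk4 or Cdk6 release E2F factors from the retinoblastoma protein, through S phase, in which licensed origins fire and DNA is copied, and through G2 and mitosis, in which B cyclins with Cdk1, Aurora and Polo kinases, kinesins and the kinetochore part the chromosomes. In the rodent hippocampus, granule neurons of the dentate gyrus are still being born in the first weeks after birth and, at a falling rate, in the adult. Microglia, oligodendrocyte precursors and reactive astrocytes can also divide. Bulk RNA holds all of these cells together, so a higher count from more cells and one from more RNA per cell cannot be told apart.

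Library totals lay between 21580398 and 55544866 expected counts, with a median of 46157264, and 2 rats were under 30000000. Gfap itself, the mutated gene, had between 22392 and 49148 normalized counts in WT and between 141715 and 317419 in R237H rats, without overlap. Choroid plexus RNA entered single libraries: Ttr reached 27.3, 36.4, 42.9 and 75889.8 in the WT males at P56, and a rat of at least 8424 was also present among R237H males and R237H females at P56 and among WT males and WT females at P21. Normalized counts are counts scaled by TMM factors to a common library of 45420183, fold changes and FDR values come from edgeR fits to all genes, and the threshold was an FDR of 0.01. Where the 4 genotype comparisons are listed, the order is P56 males, P56 females, P21 males and P21 females. The counts of rats are listed from lowest to highest.

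Division and replication genes were higher in R237H than in WT rats at both ages and in both sexes. In P56 males, 52 of the 61 members chosen on other rats were increased and 3 decreased, against 16.8% and 11.1% of all 15097 genes tested. Those members were chosen because rats of another sex or age placed them high for the same contrast. A share above that of all genes, here and in the comparisons below, follows in part from that choice. In P56 females, 51 of 63 were increased and 2 decreased (17% and 11.1% of all genes). In P21 males, 46 of 60 were increased and 0 decreased (12.4% and 4.82%). At an unadjusted p under 0.05 the members numbered 56 and 2, a level at which all genes were not counted. In P21 females, 35 of 51 were increased and 0 decreased (7.06% and 0.753%). At an unadjusted p under 0.05 they numbered 47 and 3, again without a count of all genes. Without the WT female at P21 that carried choroid plexus RNA the 35 became 22, and without WT female 1 it became 19, each time with 2 WT rats left in the group. With the number in the sample title as a block, the 51 of P56 females became 28 and the 35 of P21 females became 14. The share of all genes called in these alternative fits is not given here. Whether members lost more calls than other genes therefore cannot be read from them.

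All 63 members passed edgeR's filter on low counts in every comparison. The median log2 fold change over the members was 1.69, 1.49, 0.78 and 1.09, and over all genes tested -0.006, -0.034, -0.0084 and -0.0069. Lowest R237H rats exceeded highest WT rats for 54, 55, 52 and 54 of the 63 members, a pattern that 23%, 22.6%, 16.9% and 14.1% of all genes showed. Separation in the other direction was found for 3, 4, 2 and 4 members, against 19%, 18.1%, 13.7% and 7.37% of all genes. The signs were shared by the 4 comparisons: 59 members had a positive fold change in each, and E2f1, Aurkc, Cdk5r1 and Kif26b had a negative one in each. On the deposited TPM scale, compared this way after the data were seen, the median log2 difference of all genes tested was 0.40 in P56 males and 0.26 in P56 females but -0.0091 and -0.073 at P21, a shift of 0.40 and 0.29 from the edgeR fold changes at P56, and TPM differences at P56 are to be read against that. The members had medians of 1.81, 1.54, 0.73 and 0.95 on that scale, and 59 were again positive in each comparison. R237H rats lay above WT rats for 59, 58, 54 and 55 members (42.5%, 32.9%, 16.9% and 11.2% of all genes) and below for 0, 2, 2 and 4 (2.6%, 4.68%, 11.9% and 8.85%). Since the lists chose members by strength of difference, the counts over all 63 describe them and test nothing.

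**Figure D1:**
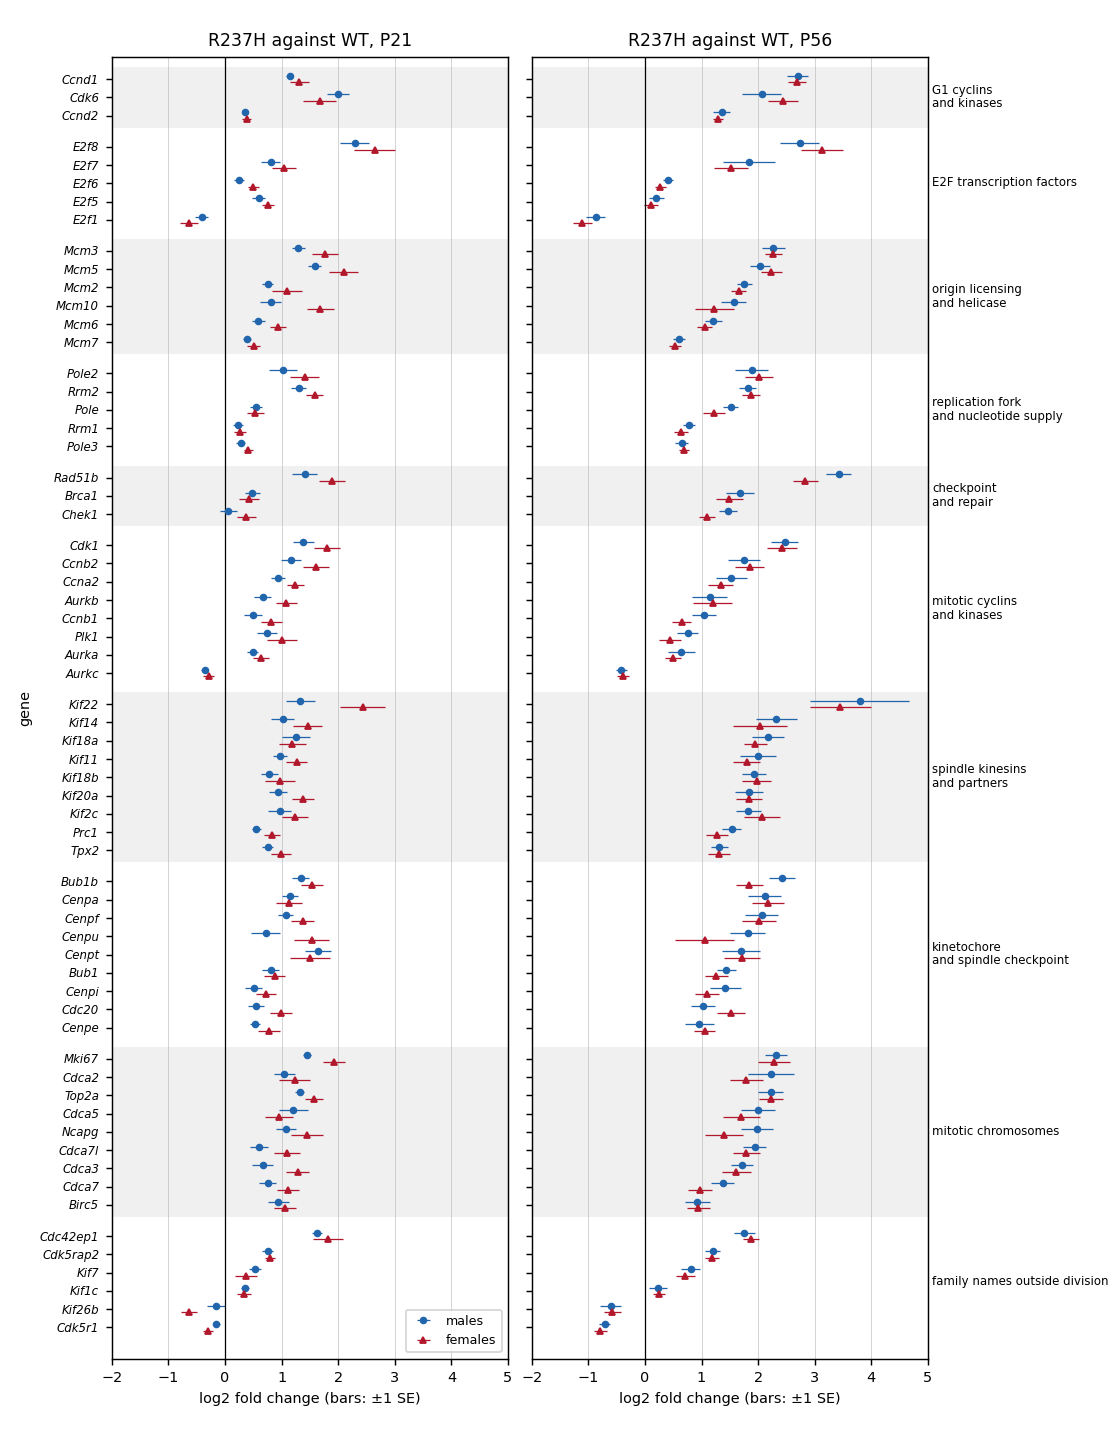
Log2 fold change of R237H against WT for each of the 63 genes at P21 (left) and P56 (right), in males (circles) and females (triangles), with bars of ±1 SE and genes grouped by role. Points lie right of 0 for all but E2f1, Aurkc, Cdk5r1 and Kif26b, and Kif22 and Rad51b reach furthest right in P56 males.

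The start sites of these genes were also examined, with the members grouped by phase. RefSeq promoters (GRCr8, 250 bases before to 50 after the start) matched 49 of the 63 members by symbol. An E2F site was searched as TTTCCCGC, TTTCGCGC, TTTGCCGC or TTTGGCGC, the cell cycle homology region (CHR) as TTTGAA, and the CCAAT box as CCAAT, each on both strands. These motifs are known from genes of G1/S and of G2/M, respectively: E2F sites from the former, and the CHR with CCAAT boxes from the latter. An E2F site was present in 8 of 13 S phase promoters (61.5%), in 3 of 29 G2/M promoters (10.3%) and in 2.14% of all 33469 promoters. A CHR was present in 3 of 13 S phase and 16 of 29 G2/M promoters (23.1% and 55.2%), against 18.3% of all. A CCAAT box was present in 9 of 13 S phase and 19 of 29 G2/M promoters (69.2% and 65.5%), against 37.5% of all. The CCAAT box alone thus did not set the phases apart. The CHR stood together with a CCAAT box in 1 of 13 and 12 of 29 (7.69% and 41.4%), against 7.41% of all. These matches describe letters and were not tested, and no binding was measured.

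The 250 bases before the start are shown for a pair of S phase genes and a pair of G2/M genes as examples of both kinds, with the motifs in capitals and the remainder in lower case. Mcm5 and Mcm7 encode subunits of the replicative helicase, Cdk1 the mitotic kinase and Top2a the topoisomerase that untangles chromosomes.
Mcm5 (chr19:13488563-13488812, + strand): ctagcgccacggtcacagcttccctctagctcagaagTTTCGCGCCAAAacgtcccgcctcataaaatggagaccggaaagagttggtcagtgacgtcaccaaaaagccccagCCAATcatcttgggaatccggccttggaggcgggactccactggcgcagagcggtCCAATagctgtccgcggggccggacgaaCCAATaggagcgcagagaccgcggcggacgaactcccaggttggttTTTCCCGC
Mcm7 (chr12:22163179-22163428, - strand): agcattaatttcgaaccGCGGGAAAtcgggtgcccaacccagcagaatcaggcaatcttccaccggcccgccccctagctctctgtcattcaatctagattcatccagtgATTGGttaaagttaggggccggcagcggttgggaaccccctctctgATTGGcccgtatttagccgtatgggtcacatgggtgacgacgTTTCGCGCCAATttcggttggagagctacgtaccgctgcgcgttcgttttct
Cdk1 (chr20:19265043-19265292, + strand): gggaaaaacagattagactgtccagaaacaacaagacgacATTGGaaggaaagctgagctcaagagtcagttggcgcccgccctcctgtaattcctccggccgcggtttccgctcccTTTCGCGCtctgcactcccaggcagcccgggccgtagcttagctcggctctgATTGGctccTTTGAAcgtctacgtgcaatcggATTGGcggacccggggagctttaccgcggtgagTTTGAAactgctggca
Top2a (chr10:84473094-84473343, - strand): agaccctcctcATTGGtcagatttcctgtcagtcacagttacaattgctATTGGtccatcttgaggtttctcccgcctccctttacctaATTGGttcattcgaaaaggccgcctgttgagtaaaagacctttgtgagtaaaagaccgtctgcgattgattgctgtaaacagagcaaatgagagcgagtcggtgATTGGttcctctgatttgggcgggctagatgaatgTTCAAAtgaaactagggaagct
In Mcm5 the run TTTCGCGCCAAA holds an E2F site on each strand, starting 213 and 209 bases before the start, and another begins at 8 bases. The Mcm7 stretch has E2F sites at 233 and 52 bases, of which the second overlaps a CCAAT box. CCAAT boxes begin at 137, 82 and 54 bases in Mcm5 and at 140, 94 and 45 bases in Mcm7. Cdk1 has 1 E2F site at 133 bases, a CHR at 72 and at 16 bases, and CCAAT boxes at 210, 81 and 49 bases. Top2a has no E2F site in this window, a CHR at 22 bases on the opposite strand (TTCAAA as printed) and CCAAT boxes at 239, 201, 161 and 57 bases.

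The G1 cyclins and their kinase rose in all 4 comparisons, and Ccnd1 and Ccnd2 differed more at P56. Ccnd1 (ENSRNOG00000020918), cyclin D1, had normalized counts at P56 of 369, 478, 542 and 591 in WT and 2604, 2836, 3195 and 4026 in R237H males. In females Ccnd1 counted 457, 478, 494 and 579 in WT and 2687, 2925, 3179.6 and 4271 in R237H rats. Ccnd1 counted, at P21, 537, 564, 609 and 616 in WT and 1265, 1266, 1294 and 1302 in R237H males. In females Ccnd1 counted 370.5, 394 and 439.7 in WT and 709, 915, 1042, 1135 and 1138 in R237H rats. R237H and WT rats were apart in every comparison, and the R237H rats of P56 stood above those of P21 while every WT rat counted between 369 and 616, with log2 fold changes of 2.70 ± 0.18, 2.69 ± 0.16, 1.14 ± 0.065 and 1.31 ± 0.17 (FDR = 3.82e-06, 7.90e-07, 1.03e-07 and 4.88e-04). Ccnd2 (ENSRNOG00000062959), cyclin D2, a D cyclin of neural progenitors and the most abundant member per length (mean of 103 TPM over 32 rats), counted 10108, 10340.3, 10522 and 11449.5 in WT and 19898, 25638, 28450.1 and 32526 in R237H males at P56. In females Ccnd2 counted 9945, 10337, 11619 and 12087 in WT and 25541, 27125, 27238 and 28929.9 in R237H rats. Ccnd2 at P21 counted 9452, 9648, 10194 and 10257 in WT and 12089, 12160, 12845 and 13568 in R237H males. In females Ccnd2 counted 8639.5, 9002 and 9831 in WT and 11215, 11398, 11635, 12043 and 13091 in R237H rats. The groups did not overlap, and the fold changes of Ccnd2 were 1.35 ± 0.14, 1.29 ± 0.091, 0.36 ± 0.053 and 0.39 ± 0.081 (FDR = 6.10e-05, 2.66e-06, 3.11e-04 and 0.00911) on the log2 scale. Cdk6 (ENSRNOG00000009258), a kinase partner of D cyclins, was far lower per length (1.38 TPM) and counted 10.9, 21, 26.2 and 40.0 in WT and 91.7, 101, 103 and 113 in R237H males at P56. In females Cdk6 counted 13.3, 15.3, 23 and 25.2 in WT and 85.8, 107, 113 and 119 in R237H rats. Cdk6 at P21 counted 17.7, 26, 29 and 33.6 in WT and 98.7, 104, 106 and 118 in R237H males. In females Cdk6 counted 25.1, 38.2 and 45.2 in WT and 77.6, 105, 109.5, 122 and 158 in R237H rats. Its R237H rats again lay above all WT rats, with log2 fold changes of 2.06 ± 0.35, 2.44 ± 0.26, 2.0 ± 0.20 and 1.67 ± 0.29 (FDR = 0.00109, 4.71e-05, 1.11e-05 and 0.00297), similar in size at both ages in males.

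Among 5 E2F factors the changes went in both directions. E2f1 (ENSRNOG00000016708), an activator of S phase genes, counted 779.9, 893, 952 and 1332 in WT and 500, 519, 535 and 572 in R237H males at P56. In females E2f1 counted 875, 887, 996 and 1018 in WT and 304, 445, 484 and 534 in R237H rats. E2f1 at P21 counted 1196, 1207, 1257 and 1329 in WT and 698, 976, 1024 and 1054 in R237H males. In females E2f1 counted 1123, 1295 and 1363 in WT and 652, 685, 792, 861 and 1052 in R237H rats. Every R237H rat was below every WT rat in each comparison in these counts. The log2 fold changes were -0.87 ± 0.16, -1.11 ± 0.17, -0.41 ± 0.11 and -0.63 ± 0.16 (FDR = 0.00192, 4.21e-04, 0.0178 and 0.0219), so that the decrease passed the threshold at P56 and not at P21, although the difference between ages did not pass in males (-0.48 ± 0.21, FDR = 0.102). In TPM the genotypes of E2f1 overlapped in P56 males, and the log2 differences were -0.66, -1.11, -0.49 and -0.82. E2f6 (ENSRNOG00000004449), a repressor that does not bind pocket proteins, counted 1114, 1199, 1228 and 1337 in WT and 1496, 1512, 1642 and 1694 in R237H males at P56. In females E2f6 counted 1129.6, 1246, 1292 and 1358 in WT and 1406, 1454, 1578 and 1666 in R237H rats. E2f6 at P21 counted 1031, 1046, 1055 and 1198 in WT and 1197, 1213, 1245 and 1455 in R237H males. In females E2f6 counted 907, 999 and 1069 in WT and 1272, 1349, 1389.6, 1471 and 1475 in R237H rats. Its shifts were small, overlapped in P21 males, and passed in P56 males alone among 3 tested, with log2 fold changes of 0.41 ± 0.092, 0.27 ± 0.10, 0.25 ± 0.082 and 0.50 ± 0.10 (FDR = 0.00549, 0.0465, 0.0442 and untested). E2f5 (ENSRNOG00000010760), a repressor that works with the pocket protein p130, counted 367, 397, 404 and 480.5 in WT and 417, 451, 465 and 533 in R237H males at P56. In females E2f5 counted 419, 419, 446 and 470.4 in WT and 405, 468, 489.7 and 554 in R237H rats. E2f5 at P21 counted 414, 417, 483 and 511 in WT and 570.1, 669, 702 and 805 in R237H males. In females E2f5 counted 413, 434 and 458 in WT and 709, 713, 716, 718 and 809 in R237H rats. R237H rats stood above WT at P21 and overlapped them at P56 in these counts, with log2 fold changes of 0.20 ± 0.14, 0.11 ± 0.12, 0.59 ± 0.11 and 0.76 ± 0.10 (FDR = 0.258, 0.481, 0.00215 and 6.02e-04). In TPM the genotypes of E2f5 did not overlap at P56 either, and the log2 differences were 0.60, 0.40, 0.58 and 0.70. Atypical repressors E2f8 and E2f7, which limit E2F targets late in S phase, lay at the other end of the group: E2f8 had 2.74 ± 0.34, 3.13 ± 0.37, 2.29 ± 0.25 and 2.65 ± 0.36 (FDR = 1.75e-04, 8.45e-05, 2.99e-05 and 6.65e-04) and E2f7 1.84 ± 0.45, 1.52 ± 0.30, 0.81 ± 0.17 and 1.04 ± 0.21 (FDR = 0.00877, 0.00226, 0.00356 and untested).

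All 6 genes of origin licensing and the replicative helicase had positive fold changes, and in P56 males all 6 were increased, in P56 females 5 of 6, in P21 males 6 of 6 and in P21 females 3 of 5 tested. The Mcm2 to Mcm7 proteins form the ring that opens DNA at the fork, and Mcm10 helps to start it. Mcm7 (ENSRNOG00000001349), the most abundant of them per length (13.3 TPM), counted 599, 643, 684 and 718 in WT and 899, 974, 1027 and 1049 in R237H males at P56. In females Mcm7 counted 600.3, 616, 671 and 735 in WT and 859, 965, 969.9 and 1031 in R237H rats. Mcm7 at P21 counted 598, 615, 620.2 and 621 in WT and 744, 752, 839 and 869.8 in R237H males. In females Mcm7 counted 585, 615 and 662 in WT and 779.6, 789.7, 879, 940.4 and 987 in R237H rats. The separation was complete and the change the smallest of the group, with log2 fold changes of 0.61 ± 0.10, 0.53 ± 0.11, 0.39 ± 0.072 and 0.51 ± 0.12 (FDR = 0.00114, 0.00255, 0.00155 and 0.0168). Mcm6 (ENSRNOG00000003703) counted 238, 242, 289 and 291 in WT and 495, 571, 618 and 717 in R237H males at P56. In females Mcm6 counted 253, 258, 302 and 304 in WT and 507, 541, 629.8 and 660.4 in R237H rats. Mcm6 at P21 counted 370.5, 372, 385 and 387 in WT and 478, 526, 544 and 709.7 in R237H males. In females Mcm6 counted 325, 332 and 340.1 in WT and 509, 607, 644, 663 and 729 in R237H rats. No R237H rat fell among WT rats, and the log2 fold changes of Mcm6 were 1.20 ± 0.15, 1.05 ± 0.13, 0.59 ± 0.11 and 0.93 ± 0.14 (FDR = 1.56e-04, 1.28e-04, 0.00229 and 9.53e-04). Mcm2 (ENSRNOG00000016316) counted 195, 202, 215 and 229.5 in WT and 639, 659.9, 743 and 758 in R237H males at P56. In females Mcm2 counted 184, 209, 222 and 265 in WT and 638, 698, 704 and 762 in R237H rats. Mcm2 at P21 counted 228, 249, 249.8 and 292 in WT and 395, 400.4, 426 and 486 in R237H males. In females Mcm2 counted 203, 207 and 242 in WT and 269, 424, 449, 451 and 708 in R237H rats. R237H rats exceeded WT rats throughout, though the lowest R237H female at P21 (269) was near the highest WT female (242), and the log2 fold changes were 1.76 ± 0.13, 1.66 ± 0.14, 0.75 ± 0.10 and 1.10 ± 0.27 (FDR = 5.17e-06, 7.38e-06, 1.80e-04 and 0.0202). Mcm3 had the largest value of the group at P56, 2.27 ± 0.20 in males and 2.27 ± 0.16 in females, and Mcm5 at P21, 1.58 ± 0.11 and 2.10 ± 0.26.

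The replication fork and nucleotide supply genes had medians of 1.52, 1.22, 0.55 and 0.53 on the log2 scale. Rrm1 (ENSRNOG00000045752), the large subunit of ribonucleotide reductase, counted 1076, 1161, 1249 and 1272 in WT and 1749, 2057, 2092 and 2123 in R237H males at P56. In females Rrm1 counted 970.4, 1205, 1295 and 1343 in WT and 1707, 1711, 2086 and 2089 in R237H rats. Rrm1 at P21 counted 1225, 1257, 1315 and 1443 in WT and 1406, 1471, 1478 and 1771 in R237H males. In females Rrm1 counted 1226, 1258 and 1474 in WT and 1384, 1473, 1603, 1642 and 1739 in R237H rats. Genotypes were apart at P56 and overlapped at P21, with log2 fold changes of 0.78 ± 0.10, 0.64 ± 0.12, 0.23 ± 0.086 and 0.26 ± 0.10 (FDR = untested, 0.00205, 0.0678 and 0.142). Pole3 (ENSRNOG00000070688), a small histone-fold subunit of DNA polymerase epsilon, was the highest of the group per length (31.7 TPM) and counted 1166, 1280, 1389 and 1513 in WT and 1733, 1935, 2177 and 2379 in R237H males at P56. In females Pole3 counted 1148, 1242, 1284 and 1320.4 in WT and 1841, 2028, 2124 and 2136 in R237H rats. Pole3 at P21 counted 883, 936, 1041 and 1119 in WT and 1121, 1186, 1187 and 1302 in R237H males. In females Pole3 counted 912, 976 and 1048 in WT and 1198, 1294, 1307, 1328 and 1341 in R237H rats. R237H rats were above all WT rats in each comparison by modest amounts, 0.65 ± 0.12, 0.69 ± 0.088, 0.27 ± 0.085 and 0.41 ± 0.087 (FDR = 0.00198, 1.56e-04, 0.0302 and untested). Pole (ENSRNOG00000037449), the catalytic subunit of the same polymerase, counted 139, 141, 157 and 159 in WT and 402, 406, 428 and 445 in R237H males at P56. In females Pole counted 125, 163, 176 and 198 in WT and 307, 344, 435 and 468 in R237H rats. Pole at P21 counted 194, 202, 225 and 232 in WT and 268, 314, 325 and 334 in R237H males. In females Pole counted 214, 220.3 and 251 in WT and 262, 316, 337, 348 and 375 in R237H rats. Separation was again complete, and the log2 fold changes of Pole were 1.52 ± 0.13, 1.22 ± 0.19, 0.55 ± 0.10 and 0.53 ± 0.15 (FDR = 1.81e-05, 5.38e-04, 0.00198 and 0.0403). Pole2, another subunit, gave 1.88 ± 0.30, 2.02 ± 0.25, 1.03 ± 0.25 and 1.41 ± 0.25 (FDR = 6.89e-04, 1.14e-04, 0.00843 and 0.00369).

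Of the checkpoint and repair genes, Chek1 differed at P56 and not detectably at P21, Brca1 passed in P56 females of the 3 comparisons that could be tested, and Rad51b passed at both ages. Chek1 (ENSRNOG00000071217), the kinase that halts the cycle when replication stalls, counted 111, 129, 136 and 158 in WT and 318, 347, 389.9 and 398 in R237H males at P56. In females Chek1 counted 127, 153, 165 and 165 in WT and 294, 329.8, 344 and 346 in R237H rats. Chek1 at P21 counted 138, 144, 163 and 186 in WT and 141, 142, 174 and 192 in R237H males. In females Chek1 counted 121, 137 and 166 in WT and 161, 179, 181, 193 and 198 in R237H rats. The groups were far apart at P56 and intermingled at P21. The log2 fold changes were 1.47 ± 0.16, 1.09 ± 0.14, 0.059 ± 0.15 and 0.38 ± 0.16 (FDR = 8.43e-05, 1.60e-04, 0.8 and 0.171), and the sign in P21 males turned when R237H male 2 or WT male 4 was left out. Brca1 (ENSRNOG00000020701), a factor of homologous recombination, counted 39.3, 56.9, 65.8 and 75.2 in WT and 142, 187, 192 and 227 in R237H males at P56. In females Brca1 counted 41.8, 62.1, 74.3 and 77.7 in WT and 135, 179.7, 187 and 226 in R237H rats. Brca1 at P21 counted 87.6, 92.2, 99.7 and 112 in WT and 129, 133, 138 and 146 in R237H males. In females Brca1 counted 89.4, 123 and 141 in WT and 136, 160.3, 161, 162 and 164 in R237H rats. R237H rats stood apart in both sexes at P56, in males at P21, and not in females at P21, with log2 fold changes of 1.68 ± 0.25, 1.49 ± 0.24, 0.48 ± 0.13 and 0.43 ± 0.18 (FDR = untested, 6.99e-04, 0.0149 and 0.168). Rad51b (ENSRNOG00000059245), which takes part in homologous recombination, counted 13.1, 17.8, 19 and 20.5 in WT and 157, 189, 197 and 205 in R237H males at P56. In females Rad51b counted 18.3, 23.3, 31.4 and 31.5 in WT and 168, 188, 192 and 204 in R237H rats. Rad51b at P21 counted 24.5, 26.2, 28.1 and 34.6 in WT and 56.1, 61.1, 89.4 and 91.7 in R237H males. In females Rad51b counted 24.1, 25.1 and 29.5 in WT and 73.9, 90.7, 101, 105 and 112 in R237H rats. Its log2 fold changes of 3.42 ± 0.23, 2.83 ± 0.22, 1.41 ± 0.22 and 1.88 ± 0.23 (FDR = 3.18e-06, 4.95e-06, 5.63e-04 and 2.95e-04) were the largest of all S phase members at P56.

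**Figure D2:**
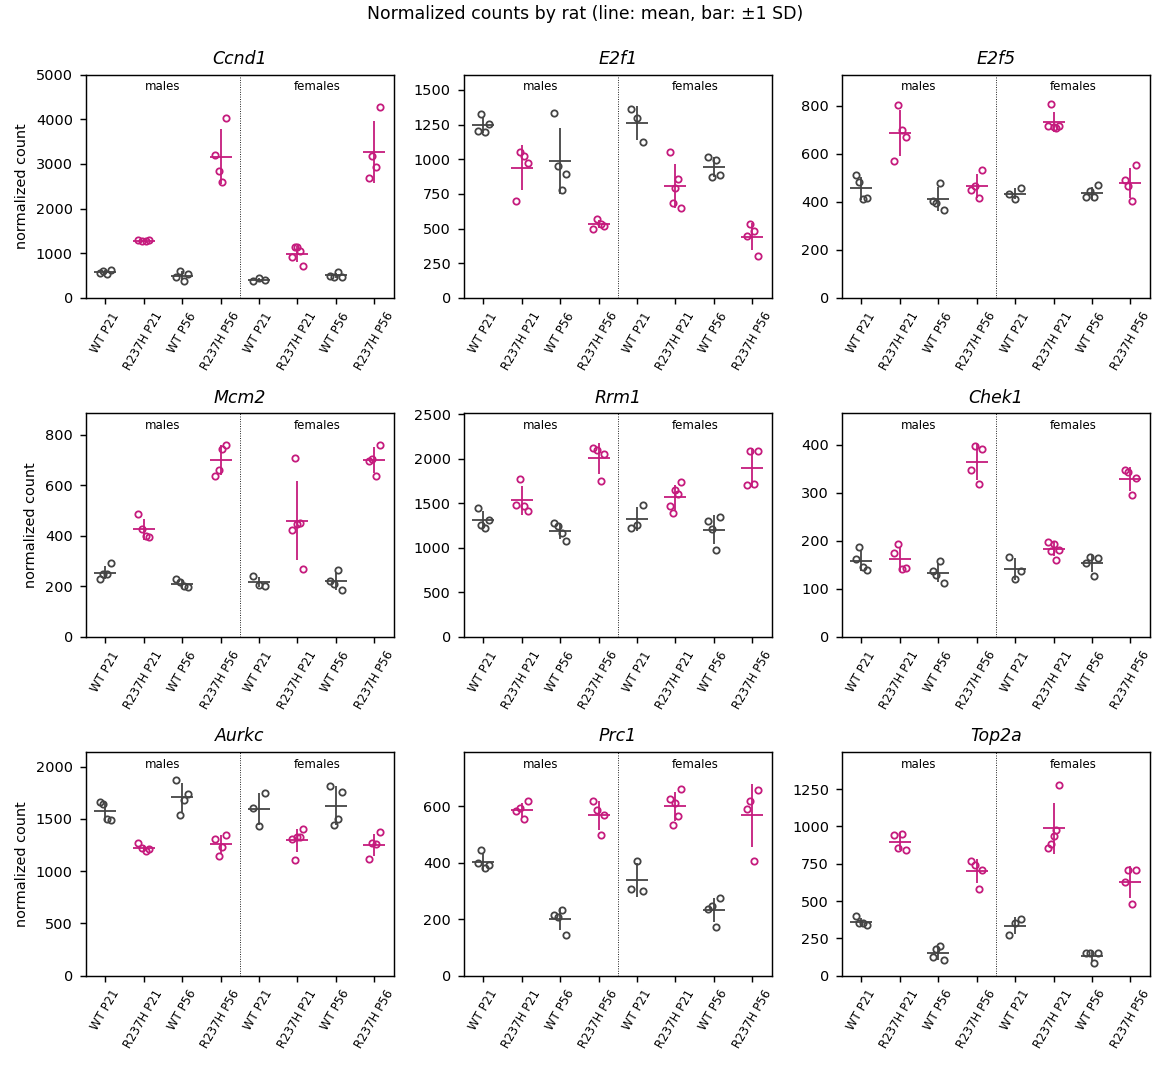
Normalized count of each rat (circles) for 9 genes in WT (grey) and R237H (magenta) rats by sex and age, with the group mean (line) and ±1 SD (bar). Ccnd1, Mcm2 and Chek1 are highest in R237H rats at P56, E2f1 and Aurkc are lower in R237H rats on this scale (in TPM Aurkc overlaps at P56 and E2f1 in P56 males), E2f5 differs at P21, and Prc1 and Top2a have lower WT means at P56.

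The mitotic cyclins and kinases had medians of 1.09, 0.92, 0.70 and 1.04. Aurkc (ENSRNOG00000015825), an Aurora kinase known chiefly from germ cells and the most abundant of the group per length (17.9 TPM), counted 1541, 1679, 1736 and 1871 in WT and 1145, 1229.9, 1306 and 1342 in R237H males at P56. In females Aurkc counted 1440.3, 1497, 1758 and 1811 in WT and 1114, 1256, 1268 and 1371 in R237H rats. Aurkc at P21 counted 1491, 1502, 1639 and 1658 in WT and 1197, 1212, 1224 and 1267 in R237H males. In females Aurkc counted 1437, 1608 and 1746 in WT and 1108, 1304, 1332, 1332 and 1401 in R237H rats. It ran against its group, lower in every R237H rat than in any WT rat of the same sex and age, with log2 fold changes of -0.42 ± 0.10, -0.39 ± 0.11, -0.36 ± 0.062 and -0.29 ± 0.10 (FDR = 0.00571, 0.0151, untested and 0.0953), of which the one in P56 males passed. In TPM the genotypes of Aurkc overlapped in both sexes at P56 and the log2 differences were -0.021, -0.11, -0.36 and -0.32. Aurka (ENSRNOG00000004479), the Aurora kinase of centrosomes and spindle poles, counted 108, 150.5, 185 and 227 in WT and 222, 229, 247 and 331 in R237H males at P56. In females Aurka counted 165, 169, 175 and 208 in WT and 228, 256, 258 and 274 in R237H rats. Aurka at P21 counted 169.6, 197, 197 and 200.4 in WT and 249, 260.2, 276 and 284 in R237H males. In females Aurka counted 156, 175 and 198 in WT and 262, 262, 269.8, 280.5 and 284 in R237H rats. Overlap remained in P56 males alone, and P21 males alone passed the test, with log2 fold changes of 0.65 ± 0.24, 0.49 ± 0.14, 0.49 ± 0.10 and 0.64 ± 0.14 (FDR = 0.0529, 0.0181, 0.00301 and untested). Ccnb1 (ENSRNOG00000058539), cyclin B1, counted 79.7, 93.3, 113 and 119.5 in WT and 155, 196, 225 and 242 in R237H males at P56. In females Ccnb1 counted 93.2, 103, 108 and 113 in WT and 145, 149, 177 and 189 in R237H rats. Ccnb1 at P21 counted 123, 139.6, 162 and 172 in WT and 163, 192, 238 and 245 in R237H males. In females Ccnb1 counted 112, 133 and 136 in WT and 162, 209, 232, 245 and 261 in R237H rats. Genotypes overlapped in P21 males, and the log2 fold changes were 1.04 ± 0.21, 0.65 ± 0.17, 0.49 ± 0.16 and 0.82 ± 0.19 (FDR = 0.00325, 0.00997, 0.0396 and untested). Cdk1, the kinase that B cyclins activate, headed the group with 2.47 ± 0.24, 2.41 ± 0.26, 1.39 ± 0.19 and 1.80 ± 0.23 (FDR = 3.47e-05, 5.31e-05, 1.44e-04 and 4.20e-04).

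All 9 spindle kinesins and partners were increased in P56 males, P56 females and P21 males, and 8 of 9 in P21 females. Prc1 (ENSRNOG00000013057), which bundles microtubules of the spindle midzone, counted 143, 209, 216 and 231 in WT and 497, 569, 587 and 619 in R237H males at P56. In females Prc1 counted 173, 234, 247 and 275 in WT and 405, 591, 618 and 656 in R237H rats. Prc1 at P21 counted 380.2, 390.1, 397 and 444 in WT and 556, 582, 594 and 617 in R237H males. In females Prc1 counted 299.6, 308 and 406 in WT and 533, 565, 609.7, 624 and 662 in R237H rats. R237H rats kept similar counts at both ages while WT rats were lower at P56, and the log2 fold changes were 1.53 ± 0.17, 1.27 ± 0.19, 0.55 ± 0.077 and 0.83 ± 0.14 (FDR = 8.65e-05, 3.85e-04, 2.04e-04 and 0.00235). Tpx2 (ENSRNOG00000008165), an activator of Aurora A on the spindle, counted 163, 179.6, 182 and 191 in WT and 364, 392, 495 and 498 in R237H males at P56. In females Tpx2 counted 131, 167, 179 and 192 in WT and 289.6, 400.4, 478 and 502 in R237H rats. Tpx2 at P21 counted 212, 223, 239.8 and 240.2 in WT and 361, 375, 376 and 426 in R237H males. In females Tpx2 counted 192, 196 and 217 in WT and 318, 350.4, 362, 453 and 507 in R237H rats. The groups stayed apart, with log2 fold changes of 1.31 ± 0.15, 1.31 ± 0.20, 0.75 ± 0.091 and 0.99 ± 0.18 (FDR = 1.12e-04, 4.29e-04, 6.67e-05 and 0.00338). Kif11 (ENSRNOG00000056069), a motor that pushes spindle poles apart, counted 40.0, 40.4, 86.5 and 92.5 in WT and 202, 253, 275 and 297 in R237H males at P56. In females Kif11 counted 42.8, 60.9, 73.2 and 74.3 in WT and 156, 219, 236 and 273 in R237H rats. Kif11 at P21 counted 127, 131, 139 and 178 in WT and 265, 270.1, 282 and 314 in R237H males. In females Kif11 counted 91.9, 112 and 142 in WT and 229.9, 247, 279, 303 and 321 in R237H rats. No overlap was seen and the log2 fold changes were 2.0 ± 0.32, 1.80 ± 0.24, 0.97 ± 0.13 and 1.27 ± 0.19 (FDR = 7.01e-04, 1.82e-04, 1.24e-04 and 0.0013). Kif22, a chromosome-arm motor, had the largest values of all members at P56, 3.79 ± 0.88 in males and 3.45 ± 0.54 in females. Those rest on near-empty WT counts, 0, 0, 14.8 and 34.7 in males and 2.04, 8.88, 18.9 and 23 in females, against 122, 176, 189.9 and 214 and 90.6, 121, 130 and 244 in R237H rats.

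Kinetochore and spindle checkpoint genes numbered 9, with 8 increased in both sexes at P56, 6 in P21 males and 4 of 6 tested in P21 females. Cenpe (ENSRNOG00000009339), a kinetochore motor, counted 110.2, 141, 149 and 248 in WT and 246, 313, 319 and 364 in R237H males at P56. In females Cenpe counted 96.7, 146, 153 and 156 in WT and 254, 271, 289.6 and 347 in R237H rats. Cenpe at P21 counted 187, 187, 190 and 192 in WT and 253, 272, 279 and 289 in R237H males. In females Cenpe counted 159, 174 and 206 in WT and 254, 267, 275, 302 and 433 in R237H rats. Males overlapped at P56, and the log2 fold changes were 0.96 ± 0.25, 1.06 ± 0.19, 0.53 ± 0.091 and 0.78 ± 0.20 (FDR = 0.0115, 0.0012, 9.55e-04 and 0.0256). Bub1 (ENSRNOG00000032778), a kinase of the spindle checkpoint, counted 76.4, 87.6, 97.9 and 107 in WT and 219, 251, 251 and 264 in R237H males at P56. In females Bub1 counted 73.3, 93.2, 97.4 and 99.7 in WT and 160.4, 218, 244 and 259.9 in R237H rats. Bub1 at P21 counted 134, 137, 164 and 190.2 in WT and 229.7, 242, 293 and 320 in R237H males. In females Bub1 counted 152, 162 and 171 in WT and 247, 272, 273, 278 and 408 in R237H rats. R237H rats exceeded WT rats in each comparison, with log2 fold changes of 1.44 ± 0.17, 1.26 ± 0.20, 0.81 ± 0.15 and 0.88 ± 0.18 (FDR = 1.38e-04, 5.32e-04, 0.00176 and 0.00872). Cenpf (ENSRNOG00000003388), a kinetochore protein of G2 and mitosis, counted 32.7, 45.7, 66.7 and 84.3 in WT and 197, 244, 247 and 254 in R237H males at P56. In females Cenpf counted 27.5, 58.8, 64.9 and 66.6 in WT and 148, 198, 262 and 284 in R237H rats. Cenpf at P21 counted 127, 129, 149 and 157 in WT and 259, 265, 291 and 364 in R237H males. In females Cenpf counted 97.4, 117 and 141 in WT and 243, 275, 282, 324 and 399.9 in R237H rats. Its genotypes never overlapped and its log2 fold changes were 2.06 ± 0.28, 2.02 ± 0.30, 1.07 ± 0.13 and 1.37 ± 0.20 (FDR = 3.25e-04, 4.40e-04, 8.39e-05 and 0.00106). Bub1b, another checkpoint protein, gave the largest value of the group in P56 males, 2.42 ± 0.24, and Cenpa, the centromeric histone, in P56 females, 2.17 ± 0.28.

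Of the genes of mitotic chromosomes, 9 of 9 were increased in each sex at P56 and 7 of 9 in each sex at P21. Top2a (ENSRNOG00000053047) counted 101, 128, 181 and 198 in WT and 582, 708, 744 and 767 in R237H males at P56. In females Top2a counted 81.5, 149, 150.1 and 154 in WT and 478, 625, 706 and 709 in R237H rats. Top2a at P21 counted 337, 349, 354 and 397 in WT and 839.8, 857, 941 and 950.3 in R237H males. In females Top2a counted 270.1, 352 and 379.5 in WT and 854, 885, 939, 975 and 1277 in R237H rats. The lowest R237H rat was above the highest WT rat throughout, and the log2 fold changes were 2.23 ± 0.22, 2.22 ± 0.22, 1.32 ± 0.079 and 1.57 ± 0.17 (FDR = 4.00e-05, 2.33e-05, 1.65e-07 and 1.23e-04). Mki67 (ENSRNOG00000028137), the protein that coats mitotic chromosomes and marks cycling cells, counted 105, 111, 147 and 181 in WT and 584, 639, 675 and 753 in R237H males at P56. In females Mki67 counted 75.4, 121, 131 and 165 in WT and 361, 584, 705 and 775 in R237H rats. Mki67 at P21 counted 288, 311, 329 and 331 in WT and 835, 865, 868 and 877 in R237H males. In females Mki67 counted 242, 249 and 255 in WT and 656, 889, 913, 939.6 and 1278 in R237H rats. The genotypes were apart in each comparison while the group means of both were higher at P21 than at P56, and the log2 fold changes were 2.31 ± 0.20, 2.28 ± 0.28, 1.45 ± 0.071 and 1.92 ± 0.19 (FDR = 1.47e-05, 1.12e-04, 3.69e-08 and 9.95e-05). Cdca7 (ENSRNOG00000001514), a partner of the chromatin remodeller Hells placed here by its family name, counted 61.5, 82.9, 98.7 and 99.1 in WT and 191, 221, 229 and 232 in R237H males at P56. In females Cdca7 counted 69.9, 106, 108 and 122 in WT and 161, 202, 207 and 233 in R237H rats. Cdca7 at P21 counted 123, 131, 152 and 157 in WT and 206, 214, 217 and 305 in R237H males. In females Cdca7 counted 111, 115 and 119 in WT and 165, 248, 262, 273 and 283 in R237H rats. R237H rats were apart from WT rats, with log2 fold changes of 1.37 ± 0.20, 0.97 ± 0.21, 0.75 ± 0.15 and 1.11 ± 0.20 (FDR = 4.45e-04, 0.00375, 0.003 and 0.00346). Birc5, the survivin of the chromosomal passenger complex, gave the smallest value at P56, 0.93 ± 0.22 and 0.95 ± 0.20.

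The 6 genes without a phase that were kept apart did not share a direction, with medians of 0.52, 0.48, 0.44 and 0.35. In each sex at P56, 3 of 6 were increased and 1 decreased. Of all genes, 16.8% (males) and 17% (females) were increased and 11.1% decreased. At P21, 2 of 4 tested in males and 2 of 5 in females were increased and 0 decreased. The shares of all genes were 12.4% and 7.06% increased and 4.82% and 0.753% decreased. Cdk5r1 (ENSRNOG00000068243), the p35 activator of the neuronal kinase Cdk5, was the highest per length (66.7 TPM) and counted 8436, 8757, 10029.8 and 10529.5 in WT and 5292, 5551, 5712 and 6087 in R237H males at P56. In females Cdk5r1 counted 8942, 9465, 9835 and 11246 in WT and 5013, 5393, 5939.5 and 6741 in R237H rats. Cdk5r1 at P21 counted 9191, 9453, 9652 and 9941 in WT and 7576, 8442, 9052 and 9194 in R237H males. In females Cdk5r1 counted 9793, 9832 and 10136 in WT and 7494, 7684, 7711, 7999 and 9221 in R237H rats. It was lower in R237H rats at P56, with log2 fold changes of -0.71 ± 0.10, -0.79 ± 0.11, -0.16 ± 0.063 and -0.30 ± 0.085 (FDR = 2.77e-04, 3.66e-04, 0.0895 and 0.0432). In TPM the P56 values of Cdk5r1 were -0.31 and -0.50. Kif1c (ENSRNOG00000031364), a transport kinesin, counted 6077, 6383, 8842 and 9148 in WT and 8102, 8293, 8373 and 10314 in R237H males at P56. In females Kif1c counted 6628, 7949, 8373 and 8526 in WT and 8353, 9582, 9829.9 and 9864 in R237H rats. Kif1c at P21 counted 4748, 5447, 5675 and 6105 in WT and 6303, 7067, 7178 and 7356 in R237H males. In females Kif1c counted 4866, 5297 and 5913 in WT and 5407, 6543, 6748, 6804 and 7913 in R237H rats. Genotypes overlapped except in P21 males, and the log2 fold changes were 0.23 ± 0.15, 0.24 ± 0.10, 0.35 ± 0.074 and 0.33 ± 0.13 (FDR = 0.259, 0.0745, untested and 0.129). Cdc42ep1 (ENSRNOG00000008517), an effector of the GTPase Cdc42, counted 597, 606, 911 and 917 in WT and 2080.1, 2210.4, 2860.1 and 2911 in R237H males at P56. In females Cdc42ep1 counted 568, 686, 786 and 908 in WT and 2376, 2681, 2888 and 2945 in R237H rats. Cdc42ep1 at P21 counted 744, 765, 777 and 883 in WT and 2191, 2278, 2512 and 2766 in R237H males. In females Cdc42ep1 counted 491, 644 and 882 in WT and 1527, 2237, 2250.1, 2338 and 3463 in R237H rats. Its groups were apart throughout and its log2 fold changes, 1.76 ± 0.19, 1.87 ± 0.15, 1.62 ± 0.085 and 1.82 ± 0.27 (FDR = 6.10e-05, 5.16e-06, 6.21e-08 and 0.00107), lay close together at both ages. Kif26b, a kinesin-like protein that lacks motor activity, gave log2 fold changes of -0.61 ± 0.18, -0.58 ± 0.15, -0.16 ± 0.16 and -0.63 ± 0.15 (FDR = 0.0227, 0.0104, 0.49 and untested).

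The fold changes of the 2 ages were then set side by side. In males 56 of 63 members, and in females 49 of 63, had a larger log2 fold change at P56 than at P21. The medians at P56 and P21 were 1.60 and 0.70 for 8 G1 and E2F members in males, 1.62 and 0.67 for 14 S phase members and 1.82 and 0.93 for 35 G2/M members. In females they were 1.41 and 0.90, 1.36 and 1.02, and 1.70 and 1.19. All 14 S phase members in males and 13 of 14 in females were larger at P56, as were 33 and 27 of the 35 G2/M members.

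**Figure D3:**
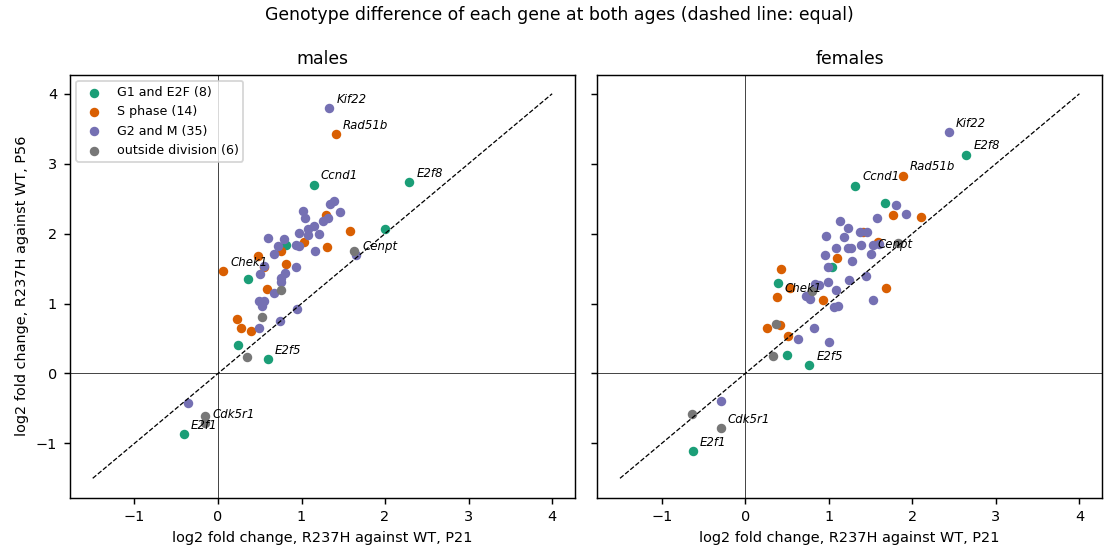
Log2 fold change of R237H against WT at P56 (vertical axis) against that at P21 (horizontal axis) for each gene, in males (left) and females (right), coloured by phase, with a dashed line of equality. In males 56 of 63 points and in females 49 of 63 lie above the line, and E2f5 lies below it in both (in TPM its male difference between ages is 0.019).

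The difference between ages was tested as an interaction of age and genotype. In males the genotype difference was larger at P56 for 13 of 58 members chosen on females, and lower for 1, against 5.81% and 4.31% of all genes. The 13 were Ccnd1 (1.53 ± 0.19), Ccnd2 (0.97 ± 0.15), Mcm2 (0.99 ± 0.15), Mcm3 (0.95 ± 0.22), Pole (0.95 ± 0.15), Chek1 (1.39 ± 0.21), Rad51b (2.0 ± 0.30), Kif18b (1.13 ± 0.25), Prc1 (0.96 ± 0.18), Bub1b (1.06 ± 0.25), Cdca3 (1.02 ± 0.26), Cdca7l (1.33 ± 0.24) and Mki67 (0.84 ± 0.20), as differences of log2 fold changes. The 1 was Cdk5r1 (-0.58 ± 0.12), whose decrease was larger at P56 (-0.16 in TPM). Kif18b is a kinesin that shortens astral microtubules, Cdca3 takes part in mitotic entry, and Cdca7l is the relative of Cdca7. In females 2 of 49 members chosen on males passed, Ccnd1 (1.38 ± 0.22, FDR = 0.00186) and Ccnd2 (0.91 ± 0.12, FDR = 3.14e-04), and 0 were lower, against 1.49% and 0.658% of all genes. At an unadjusted p under 0.05 the female counts were 14 and 2 (12% and 10.7% of all genes), and DESeq2 gave 4 and 1. E2f5, whose difference was larger at P21, had -0.41 ± 0.17 in males (FDR = 0.0981) and -0.64 ± 0.15 in females (FDR = 0.0143), and 0.019 and -0.30 in TPM.

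WT rats alone were compared between the ages, since they give the level against which R237H rats were measured, and the median members of each phase were lower at P56. In WT males 4 of 58 members chosen on females were decreased and 0 increased, against 1.7% and 0.741% of all genes: Mki67 (-1.23 ± 0.19), Top2a (-1.26 ± 0.21), Bub1b (-1.42 ± 0.23) and Prc1 (-1.03 ± 0.16). The 4 calls depend on single rats: with any 1 of the 4 WT males of P21, or with WT male 1 or 2 of P56, left out, 0 remained. In WT females 0 of 49 passed in either direction, against 1.14% and 0.415% of all genes, and DESeq2 gave 5 decreased and 1 increased. At an unadjusted p under 0.05, 39 were lower and 1 higher in males (12.6% and 13.6% of all genes) and 23 lower and 3 higher in females (12.6% and 11.2%). The lowest P21 rat exceeded the highest P56 rat for 36 of 63 members in males and 28 of 63 in females, against 10% and 11.7% of all genes. The medians were -0.83 and -0.68 for G2/M, -0.49 and -0.24 for S phase and -0.21 and -0.22 for G1 and E2F members in males and females. Age and the day or handling of collection cannot be told apart.

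R237H rats of the 2 ages were set side by side by phase, from group means and without a test. Mean counts of R237H rats at P56 were above those of R237H rats at P21 for 11 of 14 S phase members in males and 10 of 14 in females, but for 12 and 4 of the 35 G2/M members. The median log2 ratio of P56 to P21 within R237H rats was 0.41 and 0.23 for S phase and -0.11 and -0.32 for G2/M members. Compared with WT rats of P21, the R237H mean of P56 was higher for 14 of 14 S phase members and 34 of 35 G2/M members in each sex. Within WT rats the median log2 ratio of P56 to P21 was -0.81 in males and -0.67 in females for G2/M members, and -0.46 and -0.22 for S phase members.

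**Figure D4:**
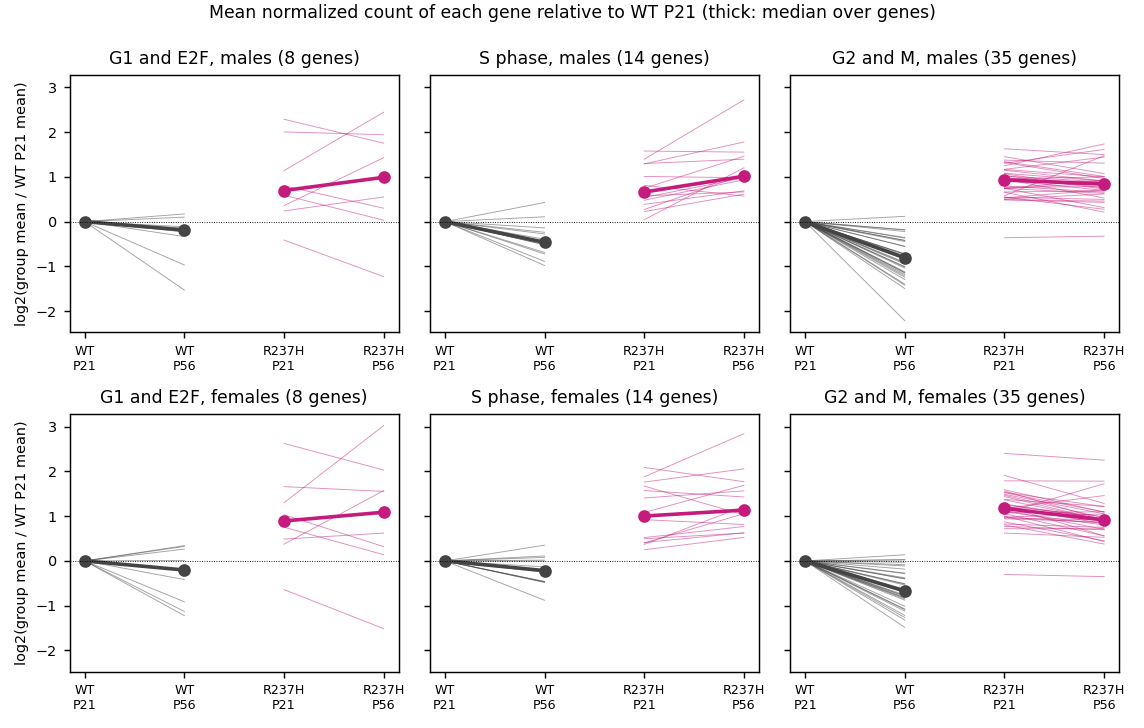
Mean normalized count of each gene relative to the WT mean at P21 on a log2 scale, for WT (grey) and R237H (magenta) rats at both ages, by phase and sex, with thin lines for genes and thick lines for their median. WT medians fall most for G2/M members (-0.81 in males), while the R237H medians of the G1, S and G2/M panels at P56 lie between 0.84 and 1.14.

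Males and females were compared by an interaction of sex and genotype. At P21 all males carried the same number in the sample title, and no female carried it. Sex and whatever that number marks cannot be told apart at that age. Of 59 members chosen on P21 rats, 0 differed at P56 in either direction, and of 41 chosen on P56 rats, 0 differed at P21, where 0% of all genes passed as well. The likelihood-ratio test and DESeq2 also gave 0 members at both ages. At an unadjusted p under 0.05 there were 0 and 0 members at P56 (1.13% and 0.876% of all genes) and 3 higher in females at P21 (1.41%). The medians of the female minus male difference in log2 fold change were -0.056 at P56 and 0.25 at P21. These counts do not show that the sexes are alike, since the difference ± SE was 1.11 ± 0.50 for Kif22 at P21 and 0.025 ± 0.24 for Ccnd1 at P56.

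A wider set of cell cycle genes was counted from 11 lists written by hand (218 names). Symbols were found for 91 of them, 28 of which were not members, so the counts are lower bounds. A symbol again required a high place on a genotype list, so shares among the 28 are raised by that choice. All 28 had positive fold changes in each comparison, with medians of 1.59, 1.43, 0.73 and 0.93. Increased were 26 of 28, 25 of 28, 21 of 27 and 10 of 22 tested, against 16.8%, 17%, 12.4% and 7.06% of all genes. Decreased were 0 in each comparison, against 11.1%, 11.1%, 4.82% and 0.753% of all genes. Pocket proteins that restrain E2F had positive fold changes at both ages. At P56 Rbl1, p107, had 1.84 ± 0.24 in males and 1.79 ± 0.16 in females, and Rb1, the retinoblastoma protein, 0.94 ± 0.18 and 0.87 ± 0.15. At P21 Rbl1 had 1.03 ± 0.12 and 1.32 ± 0.17, and Rb1 0.26 ± 0.061 and 0.43 ± 0.12. Among 4 inhibitors of Cdk kinases, Cdkn2b, p15, stood at 2.50 ± 0.25 and 2.10 ± 0.27 at P56 and 2.95 ± 0.18 and 2.57 ± 0.25 at P21, and Cdkn2c, p18, the lowest in P56 males (0.91 ± 0.19). Cdkn1a, p21, counted 71.4, 93.4, 99.3 and 211 in WT and 377, 383, 514 and 656 in R237H males at P56. Its log2 fold changes in the 4 comparisons were 2.04 ± 0.34, 2.11 ± 0.25, 0.37 ± 0.17 and 0.68 ± 0.26. Of 3 licensing genes, Cdt1, the origin loader, had 1.71 ± 0.25 in P56 males and 1.78 ± 0.49 in P21 females. Pcna, the sliding clamp of the fork, had 0.84 and 0.66 at P56. Ndc80, the microtubule binder of the kinetochore, had 1.92 ± 0.20 and 1.47 ± 0.30.

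Markers of the cell types that the tissue holds were read beside these genes, and they went in both directions. Of all genes tested, 16.8%, 17%, 12.4% and 7.06% were increased, and 11.1%, 11.1%, 4.82% and 0.753% decreased. Only markers placed high on a genotype list have a symbol, so the counts below are of chosen markers. They cover 10 of 10 microglia, 6 of 11 progenitor, 5 of 7 astrocyte, 2 of 6 oligodendrocyte and 2 of 7 endothelial and pericyte names. Summed TPM of 10 microglia markers lay between 209 and 384 in WT and between 734 and 2946 in R237H rats, with 8 of 10, 8 of 10, 9 of 9 and 8 of 10 tested increased, and Csf1r, the receptor microglia need to survive, counted 4184, 4730.4, 4844 and 6075 in WT and 20648, 21831, 26163 and 27004 in R237H males at P56. Of 6 markers of progenitors and neuroblasts, 5, 5, 6 and 4 could be tested, of which 2, 1, 1 and 1 were increased and 0, 3, 2 and 0 decreased. Neurod1 of young granule neurons was at -0.89 in P56 males and Sox4 at 1.19 in P56 females, both untested, and Igfbpl1 reached -1.23 and -1.40 at P56. Dcx, of migrating young neurons, counted 1397, 2254, 2387 and 2909 in WT and 1537, 1568, 1607 and 1679.9 in R237H males at P56. In females Dcx counted 1861, 2535, 2538 and 2883 in WT and 1486, 1597, 1619 and 1628 in R237H rats. Dcx at P21 counted 4652, 4913, 5057 and 5143 in WT and 3518, 3533, 3571 and 3761 in R237H males. In females Dcx counted 4718, 5393 and 5688 in WT and 2781, 3184, 3246, 3856 and 4751 in R237H rats. Dcx was lower in every R237H than in every WT rat of P21 males and P56 females and overlapped in the remaining comparisons (-0.016 in P56 males in TPM), and Nes, an intermediate filament of progenitors and of reactive astrocytes, was higher (log2 fold change 4.00 in each sex at P56). Of 5 astrocyte markers, 5, 5, 4 and 5 could be tested, of which 0, 0, 1 and 0 were increased and 2, 2, 2 and 1 decreased. Gja1, a gap junction protein, fell by 1.16 and 1.23 at P56 and Aldoc, a glycolytic enzyme, by 0.93 and 0.84, while Slc1a2 was at -0.58 and -0.48, Aqp4 at 0.52 and 0.42 and Sox9 at 0.53 and 0.61. Of 2 oligodendrocyte markers, 2 and 1 were increased at P56, and Cldn11 had 1.35 and 1.29. Of 2 endothelial and pericyte markers, Vtn was decreased in P56 males, at -1.0, and was at -1.10 in P56 females, untested. Gpr17, the only oligodendrocyte precursor marker of 7 with a symbol, was at -0.18, -0.091, -0.45 and -0.55 on the log2 fold change scale, of which both values at P21 passed, and at 0.21 and 0.20 at P56 in TPM. Of 6 choroid plexus markers 1 passed (Aqp1, in P56 females, chosen after its value was seen), and 4 erythroid markers were decreased at P56 in both sexes (medians -3.80 and -2.87). T and B cell markers had no symbol and were not analysed here, and the neuron marker Rbfox3, 1 of 7 with a symbol, was at -1.05 (untested) and -0.71 (not past the threshold) at P56. The part of each cell type in the changes of division genes was not tested.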

How the data were processed

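Hippocampal RNA of 32 rats was sequenced after polyA selection as stranded libraries. Per the labels and methods, the authors used bcl2fastq 2.20.0.422, Skewer, STAR and RSEM. The deposited expected counts are RSEM estimates with no scaling between rats. The deposited TPM are scaled by transcript length and depth. The genome build and annotation were not given in the sources used here, so no gene positions are printed from the files. Of the expected counts, 5.68% were not whole numbers and all were rounded.

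Counts were fitted with edgeR 4.0.16 in R 4.3.3 (filterByExpr, TMM, quasi-likelihood F-test), within each sex and age for the genotype and with interaction terms over 16 rats for age and sex. The FDR is the Benjamini-Hochberg value over all genes tested. The SE is the absolute log2 fold change divided by the root of F. Rats were taken as replicates, numbered in accession order. Depth was at least 21580398 counts per rat.

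Symbols cover 3289 identifiers and come from the name column of lists that accompany the study, whose statistics were not used. Members and gene lists were chosen with earlier results of these data known. A test counts only members that a list from other rats had placed high. Named with every rat's value are the 3 members of highest mean count in each of 10 role groups. Also named are members that go against their group in at least 2 comparisons, those that pass an interaction test, and those at the ends of a group's range, 36 by the first 3 rules. The same rule of ends was applied to genes of the lists that are not members. Promoters are from RefSeq (GRCr8), searched with Python 3.11.15.

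Alternatives were DESeq2 1.42.0, edgeR's likelihood-ratio test, RLE factors, an FDR of 0.05, a filter of 10 or more counts in each rat and none at all, all 32 rats in one model, the number in the sample title as a block, and each rat left out. For named genes log2(TPM + 0.1) was also used, and TPM over all members was added after the data were seen. The scripts were tested on simulated data with 200 changed genes: for P56 males, with 15097 genes, 51% of 2-fold and 91% of 4-fold changes were recovered, for P21 males, with 14953 genes, 83% and 97%, for age by genotype in females, with 15504 genes, 44% and 82%, and for sex by genotype at P56, with 15419 genes, 34% and 76%.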

Additional observations from a re-analysis of the deposited data

Results flagged for a closer look

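Of 210 groups of 4 or 5 rats of the named genes, 11 held a rat whose gap to the nearest other exceeded Dixon's limit, where chance flags about 1 in 20 groups. In R237H females at P21 these were E2f5 (highest at 808.9), Brca1 (lowest at 136), Bub1 (highest at 408.5), Cenpe (highest at 433) and Top2a (highest at 1276.6 normalized counts), and the last 3 were the same rat. In WT females at P56, Cenpe (lowest at 96.74) and Top2a (lowest at 81.46) stood out in the same rat. In WT males at P21, E2f6 (highest at 1198.3) and Aurka (lowest at 169.6) stood out, again in 1 rat. Cdca7 (highest at 305) in R237H males at P21 and Kif1c (highest at 10313.8) in R237H males at P56 were each in a single rat.

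The genotype difference differed between ages in 14 tests in males and 2 in females (edgeR interaction, FDR under 0.01), given here as the P56 minus the P21 log2 fold change. In males the values were 1.5323 for Ccnd1, 0.9709 for Ccnd2, 0.9866 for Mcm2, 0.9491 for Mcm3, 0.9488 for Pole, 1.3917 for Chek1, 1.9986 for Rad51b, 1.1324 for Kif18b, 0.9609 for Prc1, 1.0612 for Bub1b, 1.0247 for Cdca3, 1.3267 for Cdca7l, 0.8371 for Mki67 and -0.5786 for Cdk5r1. In females they were 1.3830 for Ccnd1 and 0.9120 for Ccnd2.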

How the results depend on the processing

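The counts of members increased in P56 males and P21 males kept within 1.5 times of 52 and 46 under every alternative run. For the alternatives, the share of all genes called is not given here. With the number in the sample title as a replicate block, 28 members were increased in P56 females in place of 51 and 14 in P21 females in place of 35. Same-numbered rats did not all deviate together (correlations of 0.1893, 0.0451, 0.0048 and -0.0259 in P56 males, 0.0808 and 0.3971 in P56 females, and -0.0067, 0.0553 and 0.3117 in P21 females). Not every P56 male correlated best with its own number, but the highest values of both female comparisons (0.3971 and 0.3117) were of same-numbered rats. What the number marks was not given, so the main fits did not take the numbers as pairs. These correlations cannot exclude pairing. No block could be fitted in P21 males, which share 1 number.

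Members decreased in P56 females numbered 4 at an FDR of 0.05, by DESeq2, by the likelihood-ratio test and with all 32 rats, in place of 2. In P21 males 1 was decreased at an FDR of 0.05, by DESeq2 and by the likelihood-ratio test, and in P21 females 2 at an FDR of 0.05 and by DESeq2 and 1 by the likelihood-ratio test and with all 32 rats, in place of 0. In WT males, 19 members were lower at P56 at an FDR of 0.05, 19 by DESeq2 and 16 by the likelihood-ratio test, in place of 4, and 1 was higher by DESeq2. In WT females, 6, 5 and 6 were lower and 1 higher by each of these. The difference between ages was higher at P56 for 25 members in males at an FDR of 0.05, in place of 13. In females it was higher for 4 at an FDR of 0.05 and by DESeq2, in place of 2, and lower for 1 by these and the likelihood-ratio test. The causes were not tested.

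With each rat left out in turn, increased members numbered 44 to 53 in P56 males, 44 to 49 in P56 females, 38 to 48 in P21 males and 19 to 35 in P21 females, and decreased members 2 to 4, 2 to 3, 0 to 1 and 0 to 2. In P21 females 19 were increased without WT female 1 and 22 without WT female 3, and 2 were decreased without R237H female 1. In P21 males 1 was decreased without R237H male 1 or 2. With age in WT rats, 0 were higher in either sex and 0 to 6 (males) and 0 to 1 (females) were lower. The male count was 0 without any one of the 4 WT males of P21 or without WT male 1 or 2 of P56, and the female count was 1 without WT female 3 of P56. Leaving out rats was not run for the interactions.

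Of 144 log2 fold changes of named genes, 138 kept their call with RLE factors and 6 lost it, and on log2(TPM + 0.1) 107 moved by less than the spread between rats and 37 by more, on a scale where the median of all genes stood 0.40 higher in P56 males and 0.29 higher in P56 females. On TPM, 60 of 63 members in males and 57 in females had a larger difference at P56. Over 1152 fits with a rat left out, 1048 kept their call, 87 lost it, 15 gained it and 2 changed sign. Both were Chek1 in P21 males, at -0.0393 without R237H male 2 and -0.0029 without WT male 4, within a range of -0.0393 to 0.1446.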
